A study of Mus musculus with 6 samples.

Results

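The genes described here encode the machinery that carries proteins into mitochondria and the chaperones and proteases that handle them inside. They were taken from the table by name: protein-coding genes whose symbol begins with Timm or Tomm followed by a digit, together with Hspd1, Hspe1, Hspa9, Lonp1, Clpp, Clpx, Grpel1, Grpel2, Pmpca, Pmpcb, Samm50, Phb and Phb2. This gave 36 genes out of 16561 protein-coding genes and 25344 genes in all. The samples were gastrocnemius muscle, a mostly fast calf muscle, from mice carrying an NRTN transgene under the human skeletal α-actin promoter (HSA-NRTN, 3 libraries) and from wild-type littermates (WT, 3 libraries). That promoter is active in skeletal muscle fibres, and the product, neurturin, is a secreted factor of the GDNF family. The study asks whether neurturin from muscle ties the metabolism of the fibres to the kind of motor neuron that reaches them. The sources used here do not state age, sex, strain background, the number of transgenic lines or the number of animals behind each library, so p-values reflect only how these libraries scatter, which may be technical.

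Nearly all mitochondrial proteins are made in the cytosol and enter through the TOM complex of the outer membrane, which holds receptors and a channel. From there the SAM complex inserts barrel-shaped proteins into the outer membrane, the small TIM chaperones escort hydrophobic proteins across the intermembrane space, the TIM22 complex inserts carrier proteins into the inner membrane, and the TIM23 complex passes proteins with a presequence towards the matrix. A motor built on the mitochondrial Hsp70 pulls them in, the processing peptidase removes the presequence, the Hsp60 and Hsp10 chaperonin folds them, and matrix proteases degrade those that fail. Oxidative muscle fibres hold more mitochondria than glycolytic fibres do.

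Values are FPKM, reads per kilobase of gene, scaled to the reads counted in genes. Reads in genes came to 28580513, 50291845 and 30562889 in the HSA-NRTN libraries, against 27418154, 31543531 and 35243260 in the WT libraries. In a gene of 1 kilobase, 3 reads amounted to 0.0597 to 0.109 FPKM, and lower levels may go undetected. Nrtn measured 178, 201 and 169 FPKM in the HSA-NRTN libraries and 3.21, 1.70 and 4.33 FPKM in the WT libraries, so the transgene's gene fitted the labels of all 6 libraries. The 10 most abundant genes took 18.4% to 20.7% of the reads in HSA-NRTN and 22.6% to 23.7% in WT. Because FPKM divides by all reads, every change depends on how the libraries are scaled. When the libraries were scaled instead by size factors taken back out of the authors' mean signal, log2 changes moved down, by about 0.30 (a factor of 1.23) in genes well above 1 FPKM, so calls are given under both scalings. Calls were made with limma on log2(FPKM + 1) at a Benjamini-Hochberg adjusted p under 0.05 over the 10755 genes that averaged 1 FPKM or more, and "rose" and "fell" refer to the deposited FPKM unless the size factors are named.

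The import genes did not move as a block. Hspa9, Hspd1, Timm21, Timm44, Tomm5 and Phb2 were called higher in HSA-NRTN muscle under both scalings, Timm29 was called lower under both, and the remaining genes depended on the scaling or passed in neither. Of the 36 genes, 34 reached the minimum level, and Timm8a1 and Tomm6 did not. With the deposited FPKM, 18 of the 34 were called higher, where 41.6% of all tested genes were, and 1 was called lower, where 11.7% of all were. With the size factors, 6 were called higher (21.1% of all tested genes) and 4 lower (29.9% of all). The authors' deposited table had 6 of the 36 higher and 4 lower at an adjusted p under 0.05, against 18% and 17.8% of the 18953 genes with an adjusted p, and these were the same 10 genes as with the size factors. Because the size factors were taken from the authors' own mean signal over the same libraries, this match is not an independent result. These counts are a description beside the shares of all genes, and no difference between the import genes and all genes was tested.

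The median log2 change of the 34 genes was 0.27 with the deposited FPKM, beside 0.18 for all tested genes, and -0.012 with the size factors, beside -0.054 for all. Every HSA-NRTN library lay above every WT library for 19 of the 34 in the deposited FPKM (47.0% of all tested genes) and below for 3, Pmpca, Timm17b and Timm29 (15.2% of all). With the size factors these counts were 8 above (24.6% of all) and 4 below (35.4% of all). Summed over all 36 genes, the level ran from 957 to 987 FPKM in HSA-NRTN, against 745 to 779 FPKM in WT. Such a sum is weighted to the abundant genes, and Hspa9 alone gave 189 to 206 FPKM in HSA-NRTN and 126 to 134 FPKM in WT. With the size factors the sums overlapped, at 837 to 925 FPKM in HSA-NRTN, against 812 to 865 FPKM in WT.

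**Figure D1:**
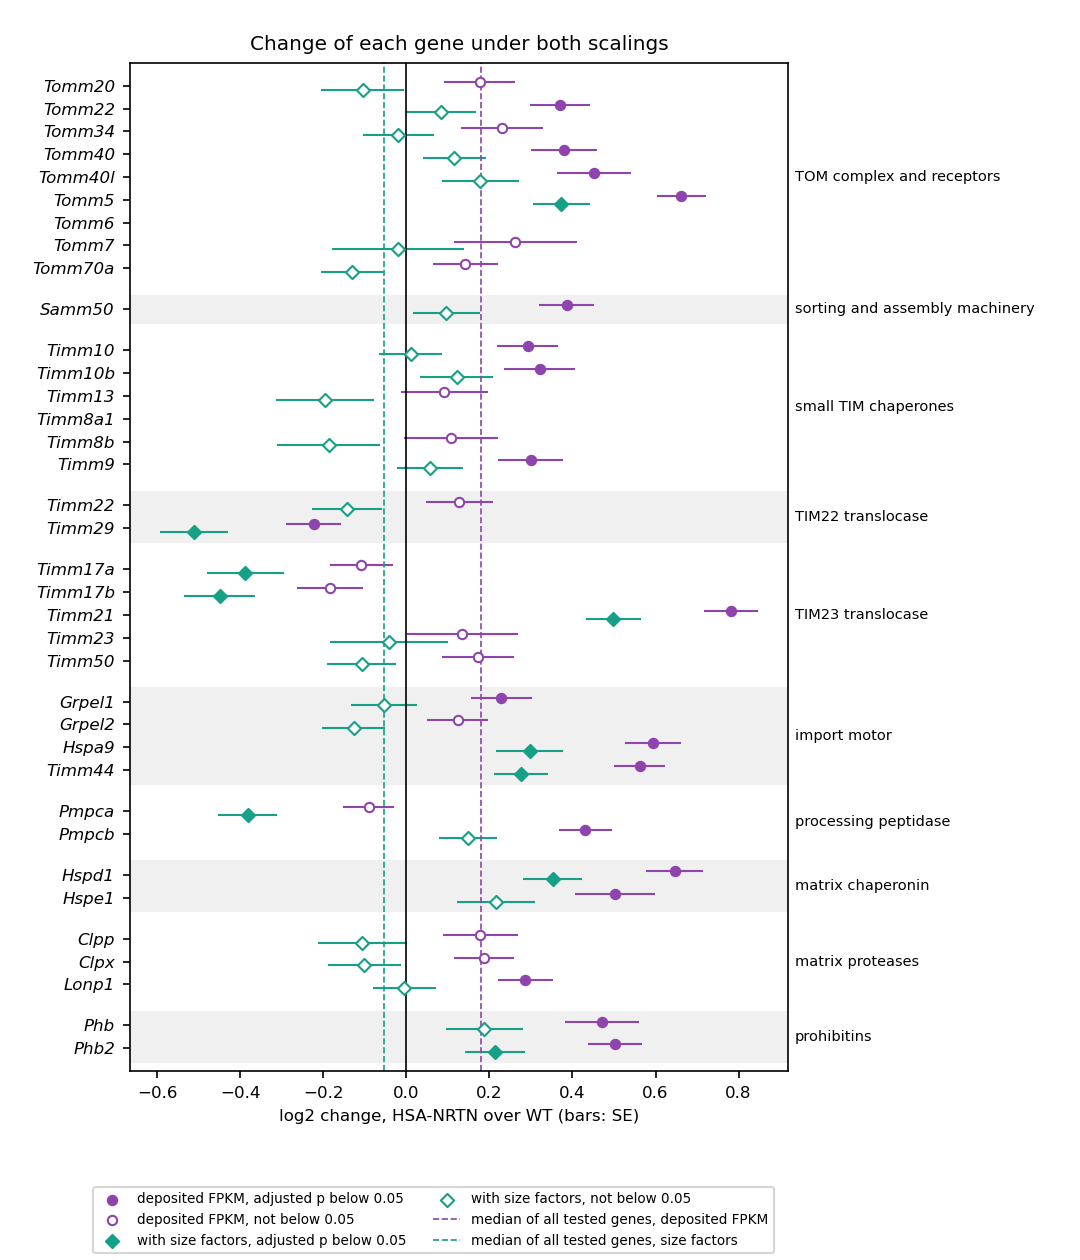
Log2 change of each tested import or chaperone gene (HSA-NRTN minus WT) with its standard error, grouped by role, under the deposited FPKM and under the size factors. Filled points passed an adjusted p under 0.05 and dashed lines mark the median of all tested genes. Changes run from -0.22 for Timm29 to 0.78 for Timm21 with the deposited FPKM, and each lies lower with the size factors.

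Markers of other cell types and of fibre types differed between the genotypes as well. Beside the counts below, 41.6% of all tested genes were called higher and 11.7% lower, and 21.1% and 29.9% with the size factors. All 10 macrophage markers were called higher under both scalings, their summed level being 365 to 390 FPKM in HSA-NRTN, against 60.6 to 82.5 FPKM in WT. All 9 fast-fibre markers were called lower under both scalings, at a sum of 28005 to 30280 FPKM in HSA-NRTN, against 53660 to 59465 FPKM in WT. Of 8 slow-fibre markers, 1 was called higher and 1 lower with the deposited FPKM, and 0 and 3 with the size factors, at 298 to 398 FPKM in HSA-NRTN and 168 to 448 FPKM in WT. Fibroblast markers (8 of 8 called higher, and 7 of 8 with the size factors) summed to 515 to 628 FPKM in HSA-NRTN, against 298 to 338 FPKM in WT, and endothelial markers (7 of 8, and 3 of 8) to 116 to 138 FPKM in HSA-NRTN, against 83.7 to 92.5 FPKM in WT. Adipocyte markers (5 of 6 called higher, and 3 higher and 1 lower with the size factors) summed to 203 to 381 FPKM in HSA-NRTN, against 91.2 to 111 FPKM in WT, and Schwann cell markers (5 of 5 tested, and 3 of 5) to 52.8 to 69.0 FPKM in HSA-NRTN, against 38.7 to 39.6 FPKM in WT. The tissue label held: 10 general muscle fibre markers summed to 25073 to 28061 FPKM in HSA-NRTN and 36004 to 39697 FPKM in WT, with 3 called higher and 4 lower (2 and 6 with the size factors). The 2 heart muscle markers in the table summed to at most 0.406 FPKM in any library, and the 2 brown adipocyte markers to 1.15 to 2.25 FPKM in HSA-NRTN, against 0.268 to 1.58 FPKM in WT. In these whole-muscle samples, fewer cells of a type and less RNA per cell cannot be told apart, and the part of other cell types in the changes of the import genes was not tested.

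Both of the 2 chaperonin genes rose with the deposited FPKM (41.6% of all tested genes). With the size factors 1, Hspd1, was called higher (21.1% of all). Hspd1 (Hsp60; ENSMUSG00000025980; chromosome 1, 55077835 to 55088243 of GRCm38, minus strand) encodes the barrel in which matrix proteins fold. It measured 68.3, 68.7 and 71.6 FPKM in the HSA-NRTN libraries and 44.1, 41.6 and 46.6 FPKM in the WT libraries, and the groups did not overlap. Its mean was 69.5 ± 1.81 FPKM in HSA-NRTN, against 44.1 ± 2.48 FPKM in WT (SD, n = 3 each), which gave a log2 change of 0.65 ± 0.068 (SE; adjusted p by limma of 1.60e-04), and with the size factors one of 0.35 ± 0.071 (adjusted p = 0.00427). Hspe1 (Hsp10; ENSMUSG00000073676; chromosome 1, 55088132 to 55091307, plus strand), the lid of the barrel, measured 26.0, 28.4 and 33.2 FPKM in the HSA-NRTN libraries and 19.7, 21.7 and 19.4 FPKM in the WT libraries. HSA-NRTN library 3 was the highest of the 6, and every HSA-NRTN library lay above every WT library. The log2 change of Hspe1 was 0.50 ± 0.096 (adjusted p = 0.00309), and with the size factors 0.22 ± 0.094, which missed the threshold (adjusted p = 0.0888). Stretches of at least 95% identity in other annotated genes cover 71.1% of the Hspd1 transcript and 81.0% of the Hspe1 transcript, so reads could be shared between copies. The main Hspd1 copy, Hspd1-ps3, stood at 0.114 to 0.366 FPKM.

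Hspd1 and Hspe1 lie head to head on chromosome 1, and their RefSeq starts (GRCm38.p6) are 216 bases apart for the Hspd1 start that lies outside Hspe1. Their shared promoter region is shown because the partners of the chaperonin start from it. The window runs from 250 bases before to 50 after the start of Hspe1, chr1:55087898-55088197 on the plus strand, 5′ to 3′.
Hspe1: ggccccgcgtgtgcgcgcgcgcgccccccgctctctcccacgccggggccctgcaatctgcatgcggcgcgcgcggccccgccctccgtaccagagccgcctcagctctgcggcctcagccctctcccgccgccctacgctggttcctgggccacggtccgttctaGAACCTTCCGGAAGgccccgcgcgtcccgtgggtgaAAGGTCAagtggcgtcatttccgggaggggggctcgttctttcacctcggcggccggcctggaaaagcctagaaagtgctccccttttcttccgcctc
The capitals mark matches on either strand: the heat shock element GAANNTTC at position 167 of the window, the ets-type motif CCGGAAG at 171 and 174, which overlap each other and it, and the estrogen-related receptor motif AAGGTCA at 203. The window of that Hspd1 start shares 285 bases with it and holds the same matches on the other strand. The window of the other Hspd1 start, chr1:55088194-55088493, holds 0 matches of the motifs searched.

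Of the 4 genes of the motor at the inner face of the TIM23 channel, 3 were called higher with the deposited FPKM (41.6% of all tested genes) and 2 with the size factors (21.1% of all). Hspa9, the mitochondrial Hsp70 that binds the incoming chain, was the most abundant of the 36 genes in WT. It measured 199.6, 189 and 206 FPKM in the HSA-NRTN libraries and 134, 126 and 133 FPKM in the WT libraries, a gap wider than the range within either group. Its log2 change was 0.59 ± 0.068 (adjusted p = 2.34e-04), and 0.30 ± 0.081 with the size factors (adjusted p = 0.0169), where the call was lost without HSA-NRTN library 3 (adjusted p = 0.0662) or WT library 2 (0.0627). Timm44 (ENSMUSG00000002949; chromosome 8, 4259731 to 4275913, minus strand), which tethers Hspa9 to the channel, measured 26.9, 27.2 and 27.3 FPKM in the HSA-NRTN libraries and 17.5, 17.95 and 18.8 FPKM in the WT libraries. The 3 HSA-NRTN libraries lay within 0.5 FPKM of each other and far above WT. Its log2 change was 0.56 ± 0.062 (adjusted p = 1.99e-04), and 0.28 ± 0.066 with the size factors (adjusted p = 0.00936). Grpel1, the nucleotide exchange factor of Hspa9, averaged 19.3 ± 0.622 FPKM in HSA-NRTN, against 16.4 ± 1.20 FPKM in WT (SD, n = 3 each), with a log2 change of 0.23 ± 0.073 (adjusted p = 0.0285), and with the size factors one of -0.054 ± 0.079, which did not pass (adjusted p = 0.592). The call with the deposited FPKM was lost when any of the 3 HSA-NRTN libraries, WT library 2 or WT library 3 was left out (adjusted p from 0.0508 to 0.103). Its paralog Grpel2 measured 5.64, 5.18 and 5.76 FPKM in the HSA-NRTN libraries and 5.26, 4.68 and 5.03 FPKM in the WT libraries, and its groups overlapped (adjusted p = 0.190, and 0.188 with the size factors).

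The start of Timm44 is shown because Timm44 rose under both scalings and an estrogen-related receptor motif sits at its start. The window is chr8:4275856-4276155 on the minus strand, printed 5′ to 3′ along the gene, and was chosen after the values were seen.
Timm44: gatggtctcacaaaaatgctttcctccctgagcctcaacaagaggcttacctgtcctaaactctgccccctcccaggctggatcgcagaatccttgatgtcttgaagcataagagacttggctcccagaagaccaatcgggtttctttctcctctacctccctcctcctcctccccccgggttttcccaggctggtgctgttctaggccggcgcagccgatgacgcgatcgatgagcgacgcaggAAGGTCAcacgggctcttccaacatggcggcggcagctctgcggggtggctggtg
The capitals mark AAGGTCA at position 246 of the window, where position 251 is the first transcribed base. Besides Hspd1 and Hspe1, Timm23 and Timm8b, which were called under neither scaling, also had this motif. The window of Phb2, called higher under both, did not. A link between motif and change was not tested.

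Of the 5 genes of the TIM23 translocase, Timm21 was the 1 called higher, under both scalings (41.6% of all tested genes, and 21.1% with the size factors). With the size factors 2 were called lower (29.9% of all). Timm21, which links TIM23 to the TOM complex and to respiratory chain assembly, had the highest log2 change of the tested members. It measured 26.2, 26.1 and 28.0 FPKM in the HSA-NRTN libraries and 15.5, 14.5 and 15.4 FPKM in the WT libraries, with no overlap. This was a ratio of 1.77 between the group means and a log2 change of 0.78 ± 0.065 (adjusted p = 4.98e-05), and 0.50 ± 0.067 with the size factors (adjusted p = 6.27e-04). The level of Timm21 rests on a recovered length of 1315 bases, against a union exon length of 3722 bases. The channel-forming Timm17a measured 15.3, 13.1 and 13.3 FPKM in the HSA-NRTN libraries and 15.04, 15.3 and 14.9 FPKM in the WT libraries. In HSA-NRTN libraries 2 and 3 it was below every WT library and in library 1 just above them. Its log2 change was -0.11 ± 0.076 (adjusted p = 0.255), and -0.39 ± 0.093 with the size factors, where it was called lower (adjusted p = 0.00982). Its paralog Timm17b measured 7.88, 7.82 and 7.64 FPKM in the HSA-NRTN libraries and 9.84, 9.04 and 8.10 FPKM in the WT libraries, every HSA-NRTN library below every WT library. The log2 change of Timm17b was -0.18 ± 0.080 (adjusted p = 0.0837), which passed without WT library 3 (adjusted p = 0.0354), and -0.45 ± 0.086 with the size factors (adjusted p = 0.00338).

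Timm50, the receptor that hands precursors to the channel, averaged 15.3 ± 0.606 FPKM in HSA-NRTN, against 13.5 ± 1.53 FPKM in WT (SD, n = 3 each), and did not pass (adjusted p = 0.128), but did without WT library 1 (adjusted p = 0.0202). Its log2 change was -0.11 ± 0.083 with the size factors (adjusted p = 0.310). Timm23, the other channel subunit, measured 1.84, 1.59 and 1.39 FPKM in the HSA-NRTN libraries and 1.80, 1.42 and 0.969 FPKM in the WT libraries. The reads behind these were 94, 143 and 76 reads in HSA-NRTN, against 88, 80 and 61 reads in WT. The groups overlapped and WT library 3 was the lowest (adjusted p = 0.422, and 0.818 with the size factors). Other annotated genes, Gm10273 first among them, match 95.6% of the Timm23 transcript at 95% identity or more. The sources used here do not state how the counting divided such reads, so the level of Timm23 is uncertain.

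**Figure D2:**
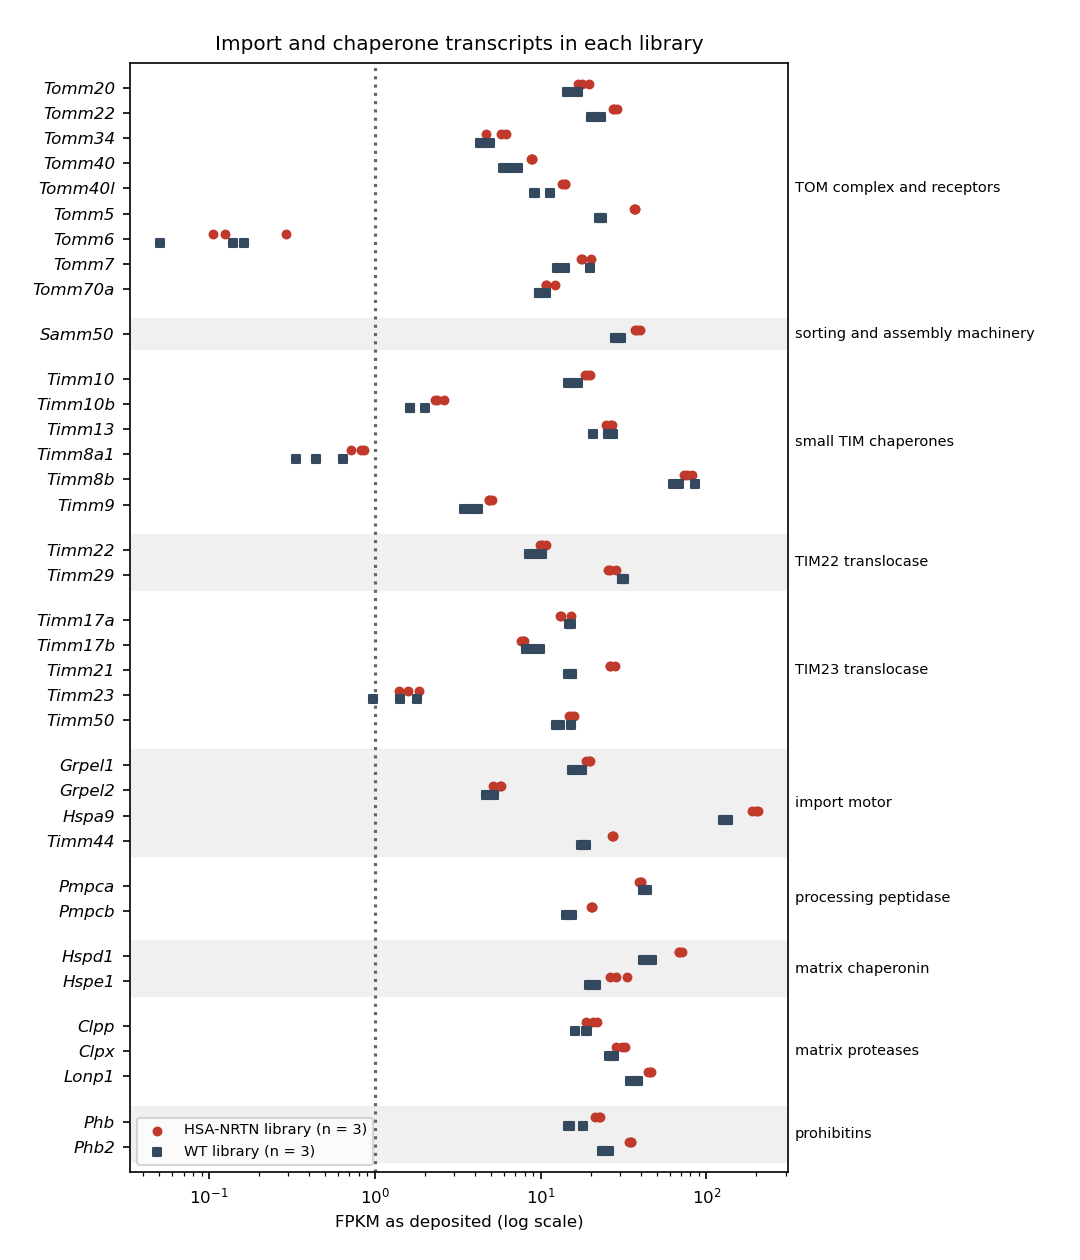
FPKM of each of the 36 genes in the 3 HSA-NRTN and 3 WT libraries on a log axis, grouped by role. The dotted line marks the minimum mean of 1 FPKM for testing. Hspa9 is highest, at 189 to 206 FPKM in HSA-NRTN and 126 to 134 FPKM in WT, and Tomm6 lies lowest, below 0.3 FPKM in every library.

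The TIM22 translocase held the gene that fell, 1 of its 2 members (11.7% of all tested genes, and 29.9% with the size factors). Timm29 (ENSMUSG00000048429; chromosome 9, 21592722 to 21595970, plus strand), a subunit of the complex that inserts carrier proteins, measured 28.4, 26.1 and 25.5 FPKM in the HSA-NRTN libraries and 31.7, 31.0 and 31.1 FPKM in the WT libraries. Every HSA-NRTN library lay below every WT library. The log2 change was -0.22 ± 0.066 (adjusted p = 0.0213), and -0.51 ± 0.082 with the size factors (adjusted p = 0.00148). With the deposited FPKM the call was lost when HSA-NRTN library 2 or 3 or WT library 2 or 3 was left out (adjusted p of 0.0708, 0.0845, 0.0556 and 0.0511 in that order). Timm22, the channel of that complex, measured 10.1, 10.7 and 9.89 FPKM in the HSA-NRTN libraries and 10.2, 9.25 and 8.47 FPKM in the WT libraries, and did not pass (adjusted p = 0.211, and 0.185 with the size factors). The promoter of Timm29 is shown as that of the tested member with the smallest log2 change, chr9:21592472-21592771 on the plus strand, 5′ to 3′.
Timm29: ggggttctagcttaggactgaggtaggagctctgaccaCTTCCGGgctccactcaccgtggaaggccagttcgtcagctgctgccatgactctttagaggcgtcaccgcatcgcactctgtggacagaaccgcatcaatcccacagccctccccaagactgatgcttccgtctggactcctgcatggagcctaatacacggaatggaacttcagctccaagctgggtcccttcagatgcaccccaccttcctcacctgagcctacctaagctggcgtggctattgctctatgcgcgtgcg
The capitals mark an ets-type motif at position 39 of the window.

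The small TIM chaperones carry hydrophobic proteins through the intermembrane space. Of the 5 tested, 3 rose with the deposited FPKM (41.6% of all tested genes) and 0 with the size factors (21.1% of all). Timm10b measured 2.61, 2.38 and 2.31 FPKM in the HSA-NRTN libraries and 2.02, 1.62 and 1.62 FPKM in the WT libraries, without overlap. With the size factors its groups overlapped. Its log2 change of 0.32 ± 0.086 with the deposited FPKM (adjusted p = 0.0141) did not pass without WT library 2 (adjusted p = 0.0557). Other annotated exons overlap 22.1% of its exon bases. Timm9 and Timm10 together form the main escort complex. Timm9 averaged 4.95 ± 0.106 FPKM in HSA-NRTN, against 3.84 ± 0.371 FPKM in WT (SD, n = 3 each; adjusted p = 0.0125). Timm10 averaged 19.2 ± 0.654 FPKM in HSA-NRTN, against 15.5 ± 1.16 FPKM in WT (SD, n = 3 each; adjusted p = 0.0108). Timm13 measured 27.1, 26.1 and 24.8 FPKM in the HSA-NRTN libraries and 27.4, 25.6 and 20.6 FPKM in the WT libraries, overlapping, with the smallest change of this group (log2 0.091 ± 0.10, adjusted p = 0.485; below 0 without WT library 3 and with the size factors, adjusted p = 0.198). Its partner Timm8b was the most abundant small TIM and averaged 77.0 ± 4.47 FPKM in HSA-NRTN, against 71.9 ± 11.6 FPKM in WT, with an SD wider than the difference (adjusted p = 0.443, and 0.237 with the size factors). Timm8a1, below the minimum level, measured 0.862, 0.714 and 0.829 FPKM in the HSA-NRTN libraries and 0.642, 0.335 and 0.439 FPKM in the WT libraries. The reads behind these were 35, 51 and 36 reads in HSA-NRTN, against 25, 15 and 22 reads in WT. Every HSA-NRTN value of Timm8a1 was above every WT value with the deposited FPKM. With the size factors the groups overlapped, at 0.815, 0.624 and 0.735 FPKM in HSA-NRTN, against 0.709, 0.379 and 0.479 FPKM in WT. The authors' deposited table gave Timm8a1 an adjusted p of 0.437, and 43.1% of its transcript is matched by Gm9797.

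Of the 8 tested Tomm genes, 4 were called higher with the deposited FPKM (41.6% of all tested genes). With the size factors 1, Tomm5, was called higher (21.1% of all). Tomm5 (ENSMUSG00000078713; chromosome 4, 45105208 to 45108114, minus strand), a small subunit of the channel complex, measured 37.0, 36.3 and 36.8 FPKM in the HSA-NRTN libraries and 23.3, 22.5 and 22.8 FPKM in the WT libraries. The values lay within 1 FPKM of each other in each group and the groups were far apart. Its log2 change was 0.66 ± 0.059 (adjusted p = 6.79e-05), and 0.37 ± 0.068 with the size factors (adjusted p = 0.00275). Tomm40, the channel itself, measured 8.79, 8.84 and 8.87 FPKM in the HSA-NRTN libraries and 7.26, 5.96 and 6.52 FPKM in the WT libraries, without overlap. It rose with the deposited FPKM (log2 0.38 ± 0.079, adjusted p = 0.00444). With the size factors it did not pass (log2 0.12 ± 0.077, adjusted p = 0.238) and the groups overlapped. Its paralog Tomm40l averaged 13.8 ± 0.316 FPKM in HSA-NRTN, against 9.88 ± 1.25 FPKM in WT (SD, n = 3 each; adjusted p = 0.00346). The call was lost with the size factors (log2 0.18 ± 0.093, adjusted p = 0.140) and the groups overlapped. For Tomm40l, exons of Nr1i3 on the opposite strand overlap 64.3% of its exon bases. Nr1i3 was at most 0.104 FPKM.

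Among the receptors, Tomm22 averaged 28.1 ± 0.799 FPKM in HSA-NRTN, against 21.5 ± 1.56 FPKM in WT (SD, n = 3 each) and rose with the deposited FPKM (adjusted p = 0.00343), not with the size factors (adjusted p = 0.445). Tomm20 measured 19.5, 16.7 and 17.7 FPKM in the HSA-NRTN libraries and 14.3, 16.3 and 16.7 FPKM in the WT libraries, with overlap (adjusted p = 0.113, and 0.406 with the size factors). Tomm70a, a receptor for carrier proteins and the smallest change among the tested TOM genes, measured 10.7, 10.8 and 12.2 FPKM in the HSA-NRTN libraries and 9.73, 9.78 and 10.8 FPKM in the WT libraries (log2 0.14 ± 0.078, adjusted p = 0.160, and 0.169 with the size factors). Tomm34, a cytosolic co-chaperone, did not pass (adjusted p = 0.0827) but did without HSA-NRTN library 1 (adjusted p = 0.0164). Its adjusted p was 0.866 with the size factors. The small subunit Tomm7 did not pass either (adjusted p = 0.168), but did without WT library 2 (adjusted p = 0.00803), which was its highest WT library. The size factors gave Tomm7 an adjusted p of 0.928. Tomm6 measured 0.124, 0.105 and 0.289 FPKM in the HSA-NRTN libraries and 0.161, 0.140 and 0.0502 FPKM in the WT libraries, under the minimum level in every library. The reads behind these were 4, 6 and 10 reads in HSA-NRTN, against 5, 5 and 2 reads in WT. Exons of other annotated genes overlap 84.2% of its exon bases, and Gm21981 on the same strand covers 76.0%, so its level is uncertain. Samm50, the core of the SAM complex in the outer membrane, measured 39.8, 38.1 and 37.1 FPKM in the HSA-NRTN libraries and 30.3, 29.1 and 27.9 FPKM in the WT libraries, without overlap. It rose with the deposited FPKM (log2 0.39 ± 0.066, adjusted p = 0.00176). With the size factors it did not pass (log2 0.096 ± 0.081, adjusted p = 0.348) and the groups overlapped.

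The subunits of the processing peptidase stood on opposite sides of WT. Pmpcb (ENSMUSG00000029017; chromosome 5, 21737141 to 21757152, plus strand), the catalytic β subunit that cuts off presequences, measured 20.4, 20.02 and 20.4 FPKM in the HSA-NRTN libraries and 15.4, 14.1 and 14.8 FPKM in the WT libraries. Pmpca (ENSMUSG00000026926; chromosome 2, 26389339 to 26397122, plus strand), the α subunit that binds them, measured 40.4, 39.4 and 40.5 FPKM in the HSA-NRTN libraries and 43.8, 41.4 and 43.3 FPKM in the WT libraries. Every HSA-NRTN library lay above WT for Pmpcb and below WT for Pmpca. Pmpcb rose with the deposited FPKM (log2 0.43 ± 0.064, adjusted p = 8.67e-04) and did not pass with the size factors (log2 0.15 ± 0.069, adjusted p = 0.104). Pmpca did not pass with the deposited FPKM (log2 -0.091 ± 0.061, adjusted p = 0.238) and fell with the size factors (log2 -0.38 ± 0.070, adjusted p = 0.00279). Exons of Inpp5e on the other strand overlap 20.4% of the Pmpca exon bases, and Inpp5e stood at 3.18 to 4.65 FPKM.

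Of the matrix proteases, 1 of 3 rose with the deposited FPKM (41.6% of all tested genes) and 0 with the size factors (21.1% of all). Lonp1, which degrades oxidised and misfolded matrix proteins, measured 46.0, 45.4 and 44.1 FPKM in the HSA-NRTN libraries and 38.6, 34.6 and 37.5 FPKM in the WT libraries, without overlap. It rose with the deposited FPKM (log2 0.29 ± 0.067, adjusted p = 0.00789). With the size factors its log2 change was -0.0044 ± 0.075 (adjusted p = 0.964) and the groups overlapped. Clpp, the peptidase of the ClpXP protease, measured 21.9, 20.6 and 18.8 FPKM in the HSA-NRTN libraries and 19.1, 18.9 and 16.01 FPKM in the WT libraries. HSA-NRTN library 3 lay among the WT libraries, and Clpp did not pass (log2 0.18 ± 0.090, adjusted p = 0.128, and 0.433 with the size factors). Clpx, which unfolds the substrates of Clpp, averaged 30.6 ± 2.03 FPKM in HSA-NRTN, against 26.7 ± 0.891 FPKM in WT (SD, n = 3 each; adjusted p = 0.0560), and passed without HSA-NRTN library 2 (adjusted p = 0.0406). Its log2 change was -0.10 ± 0.087 with the size factors (adjusted p = 0.359).

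The 2 prohibitins, which form ring scaffolds in the inner membrane, both rose with the deposited FPKM (41.6% of all tested genes). With the size factors only Phb2 was called higher (21.1% of all). Phb2 measured 35.1, 35.2 and 34.1 FPKM in the HSA-NRTN libraries and 25.7, 23.3 and 23.9 FPKM in the WT libraries, without overlap, with a log2 change of 0.50 ± 0.065 (adjusted p = 4.62e-04). With the size factors it was 0.21 ± 0.072 (adjusted p = 0.0387), a call lost when any of the HSA-NRTN libraries, WT library 2 or WT library 3 was left out (adjusted p from 0.0707 to 0.121). Phb measured 22.6, 22.7 and 21.3 FPKM in the HSA-NRTN libraries and 17.9, 14.5 and 14.9 FPKM in the WT libraries, also without overlap. Its log2 change was 0.47 ± 0.088 (adjusted p = 0.00277). With the size factors it was 0.19 ± 0.093 (adjusted p = 0.124), and the groups overlapped. Copies elsewhere match 51.5% of the Phb transcript at 95% identity or more.

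Ratios between 2 genes, taken within each library, do not depend on the scaling. For this, 11 pairs of partners in the same machinery or of paralogs, chosen after the values were seen, were compared. The groups did not overlap for 4 of them. No share over other gene pairs was computed to set beside this count. Of single tested genes, 47.0% lay above WT and 15.2% below WT in every HSA-NRTN library with the deposited FPKM. The ratio of Pmpcb to Pmpca was 0.505, 0.508 and 0.503 in HSA-NRTN, against 0.353, 0.342 and 0.342 in WT, means of 0.505 ± 0.00260 and 0.346 ± 0.00616 (SD, n = 3 each). That is 1.46-fold higher in HSA-NRTN. The ratio of Timm21 to Timm50 was 1.78, 1.64 and 1.84 in HSA-NRTN, against 1.02, 1.18 and 1.18 in WT, and that of Timm44 to Timm17a was 1.75, 2.08 and 2.05 in HSA-NRTN, against 1.16, 1.18 and 1.27 in WT. Both were higher in every HSA-NRTN library. The ratio of Timm29 to Timm22 was 2.79, 2.44 and 2.58 in HSA-NRTN, against 3.10, 3.35 and 3.68 in WT, lower in every HSA-NRTN library. Ratios with overlap were those of Phb2 to Phb (1.55, 1.55 and 1.60 in HSA-NRTN, against 1.43, 1.60 and 1.60 in WT) and of Hspe1 to Hspd1 (0.381, 0.414 and 0.464 in HSA-NRTN, against 0.447, 0.520 and 0.417 in WT). The ratios of the paralogs Timm17b to Timm17a, Grpel2 to Grpel1 and Tomm40l to Tomm40 overlapped too, and so did those of Clpx to Clpp and Tomm20 to Tomm22. With 3 libraries against 3, the two-sided exact permutation test cannot give a p below 0.1, which the 4 pairs reached (0.275 adjusted over the 11), so no ratio passed a threshold. Because the pairs were picked with the values known, these p-values only describe the separation and cannot test it.

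**Figure D3:**
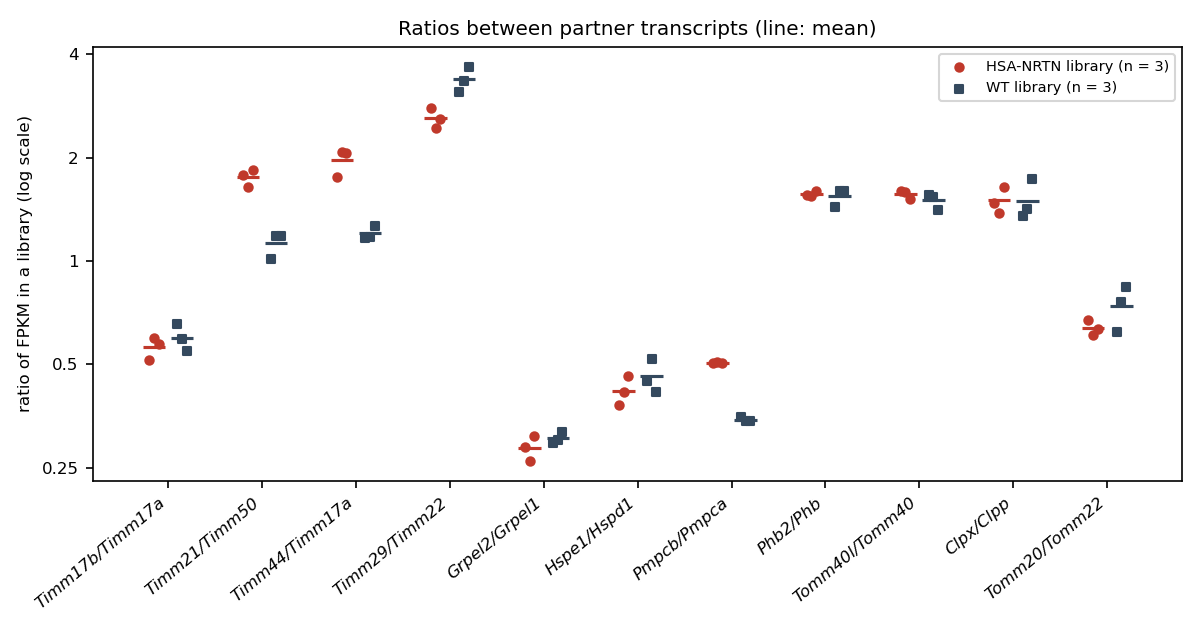
Ratio of FPKM between partner genes or paralogs in each library, HSA-NRTN beside WT, for the 11 pairs. The groups do not overlap for Timm21/Timm50, Timm44/Timm17a and Pmpcb/Pmpca, which are higher in HSA-NRTN, and for Timm29/Timm22, which is lower.

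The other genes of import and quality control were mostly higher or not called with the deposited FPKM. Of 36 listed, 34 were tested (Pam16 and Agk were not), 18 were called higher (41.6% of all tested genes) and 1 lower (11.7% of all), and with the size factors 4 were called higher (21.1% of all) and 7 lower (29.9% of all). The median of the 34 log2 changes was 0.24 (with the size factors, -0.025). Aifm1, which binds the import receptor of the intermembrane space, rose by a log2 0.67 ± 0.062 (adjusted p = 7.89e-05), Mtx2, a partner of Samm50, by 0.55 ± 0.067 (adjusted p = 3.19e-04) and Htra2, a protease of the intermembrane space, by 0.58 ± 0.075 (adjusted p = 4.52e-04). All 3 passed with the size factors too. Gfer, the oxidase that recharges the disulfide relay of the intermembrane space, measured 6.49, 7.32 and 5.94 FPKM in the HSA-NRTN libraries and 10.97, 12.3 and 12.2 FPKM in the WT libraries. It was lower in every HSA-NRTN library (log2 -0.76 ± 0.087, adjusted p = 2.42e-04; -1.03 ± 0.087 with the size factors, adjusted p = 6.27e-05). Of 14 cytosolic chaperones that hand precursors over, 5 were called higher (41.6% of all tested genes) and 2 lower (11.7% of all). With the size factors these were 1 (21.1% of all) and 3 (29.9% of all). The co-chaperone Dnaja2 fell under both scalings (log2 -0.27 ± 0.071), and Hsp90aa1 rose under both (log2 0.86 ± 0.20, adjusted p = 0.00771). Over the 14 cytosolic chaperones the log2 changes ran from -0.41 to 0.86 with the deposited FPKM. Of the 8 subunits of the cytosolic chaperonin, 1 was called higher (Cct8, log2 0.20 ± 0.073) and 0 lower. With the size factors 0 were called higher and 5 lower, Tcp1, Cct2, Cct5, Cct6a and Cct7. The shares of all tested genes beside these counts are those given above.

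The stress response genes moved in both directions. Of 16 listed, 10 were tested, with log2 changes from -1.61 to 1.44 with the deposited FPKM. With the deposited FPKM, 6 were called higher (41.6% of all tested genes) and 2 lower (11.7% of all). With the size factors these were 4 (21.1% of all) and 2 (29.9% of all). Ddit3, a stress-induced transcription factor, rose by a log2 0.59 ± 0.092 (adjusted p = 0.00111), and Mthfd2, a mitochondrial folate enzyme, by 0.45 ± 0.084 (adjusted p = 0.00279). Atf4, the transcription factor that drives the integrated stress response, fell (log2 -0.28 ± 0.094, adjusted p = 0.0335), and so did Chac1 (log2 -1.61 ± 0.50, adjusted p = 0.0260), an enzyme of glutathione breakdown. Asns, Trib3, Fgf21, Gdf15, Phgdh and Pck2 were below the minimum level.

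The nuclear genes for respiratory chain subunits were called higher almost throughout. Of 80 tested, 75 were called higher (41.6% of all tested genes) and 0 lower (11.7% of all). With the size factors these were 32 (21.1% of all) and 0 (29.9% of all). The median log2 change of these subunits was 0.57 (0.28 after that scaling). Their summed level was 13731 to 14581 FPKM in HSA-NRTN, against 8884 to 9755 FPKM in WT. Atp5g3 (log2 0.86 ± 0.069), Cox8a (log2 0.87 ± 0.084) and Ndufab1 (log2 0.63 ± 0.062) had the smallest p of the list. Of the mitochondrial ribosomal proteins, 49 of 76 were called higher and 0 lower, and 11 and 5 with the size factors, beside the same shares of all. Their median log2 change was 0.27 (-0.0036 after that scaling). Mrps9 (log2 0.75 ± 0.075), Mrpl14 (log2 0.63 ± 0.066) and Mrps35 (log2 0.64 ± 0.068) had the smallest p here. The medians are descriptions, and no difference between the lists was tested.

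**Figure D4:**
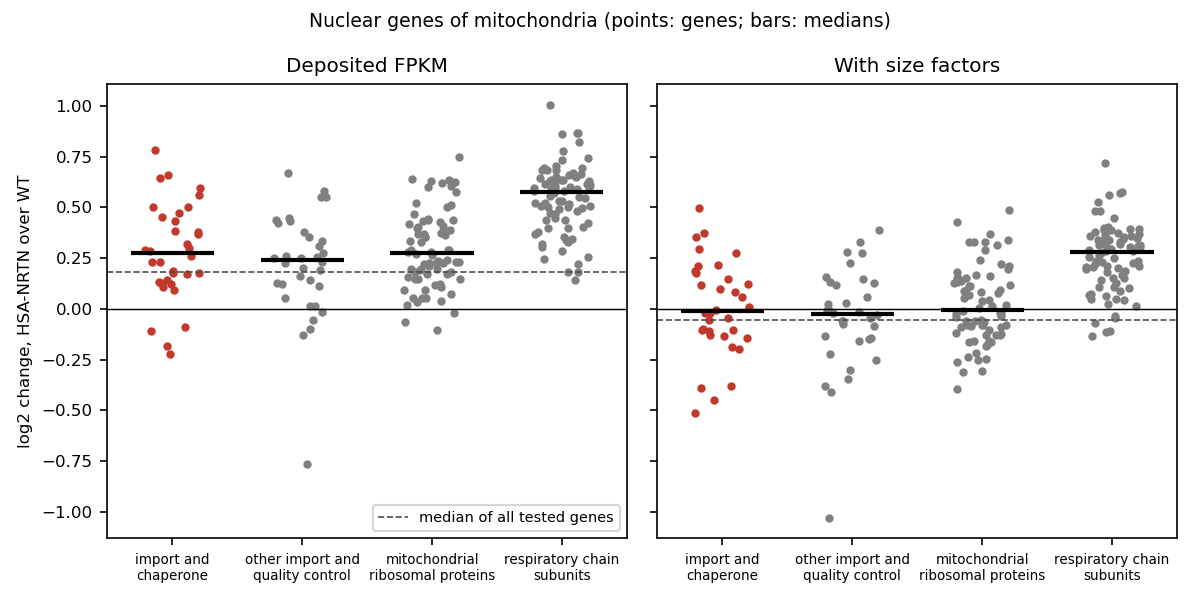
Log2 changes of single genes (HSA-NRTN minus WT) in the import and chaperone members, the other import genes, the mitochondrial ribosomal proteins and the respiratory chain subunits, under both scalings. The median of the respiratory chain subunits is 0.57, and 0.28 with the size factors, and that of the members is 0.27, and -0.012 with the size factors.

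Promoter windows of RefSeq (GRCm38.p6, from 250 bases before to 50 after a start) were available for 31 members, as 34 windows. On both strands, the ets-type motif CCGGAAG was in 16 of the 34 windows (47.1%), against 17.8% of the windows of tested genes and 8.86% of all windows. The estrogen-related receptor motif AAGGTCA was in 5 (14.7%), those of Hspd1, Hspe1, Timm23, Timm44 and Timm8b, against 3.27% of tested genes and 4.72% of all. The NRF1 motif GCGCATGC was in 3 (8.82%), against 5.29% and 2.71%, and the heat shock element GAANNTTC in 3 (8.82%), against 5.53% and 7.86%. The ATF4 motif TGATGNAA was in 0 windows, against 2.13% and 3.97%. The shared bases of Hspd1 and Hspe1 are counted for both genes, and a match is only a match of letters.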

How the data were processed

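Total RNA of frozen gastrocnemius was made into Illumina TruSeq libraries, per the labels' protocols. The authors' tools, per the submitters' processing notes, were Cufflinks, Cuffdiff, DESeq2, HISAT2 and HTSeq, and the build was GRCm38. The sources used here do not state versions, settings, strandedness or the treatment of reads that match several places. Groups came from the labels, 3 libraries each.

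The deposited table held FPKM per library, scaled by the authors to the reads counted in genes; its column names do not state the unit, which was taken from the values. Beside them stood the authors' mean signal of each gene (reads divided by size factors), their log2 fold changes with standard errors, a test score and p-values, raw and adjusted. From FPKM and the mean signal, whole reads (to 0.01 read) came out for 100% of the 127467 nonzero values. Recovered gene lengths equalled the union exon length in GENCODE M21 for 31 of the 36 members, and the other 5 differ, which scales their level but not their change. Positions are those of the table.

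The test was limma 3.58.1 under R 4.3.3 on log2(FPKM + 1), with an intensity trend, two-sided, no block, over the 10755 genes that averaged 1 FPKM or more, with Benjamini-Hochberg adjustment over all of them at 0.05. The pseudocount of 1 understates the changes of low genes. The scripts were tested on simulated data. Size factors recovered from the mean signal gave the other scaling. Transcript copies were searched with blastn 2.17.0 at 95% identity. Depths and the level of 3 reads cover counting error only.

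The alternatives were a pseudocount of 0.1, no filter, a filter of 5 FPKM, size factors, quantile normalization, limma-voom on the recovered reads, a replicate block, and leaving out each library. The size factors combined with voom, with the block and with each library left out were chosen after seeing the data. Members, lists and the promoters shown were chosen with earlier results of these data known, and the 11 gene pairs and the Timm44 promoter after values were seen. Values per library were given for Tomm20, Tomm40, Timm23, Hspa9, Hspd1, Hspe1, Lonp1, Clpp, the largest and smallest change in each role, members called lower and members below the filter, and of each other list up to 3 called genes per direction were eligible. Phb, Pmpca, Pmpcb, Timm44, Timm17a and Samm50 are shown per library where a comparison turns on them. No protein sequence is shown because no table of proteins was used here.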

Additional observations from a re-analysis of the deposited data

How the results depend on the processing

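The counts of members called higher and lower (18 and 1) were 18 and 1 with a pseudocount of 0.1, without a filter and with limma-voom, and 16 and 1 with a filter of 5 FPKM. They were 6 and 4 with the size factors, alone or with limma-voom, and 14 and 3 with quantile normalization. Leaving out single libraries gave 17 to 19 and 0 to 1, and with the size factors 4 to 8 and 4 to 5. For the other import genes (18 and 1) the counts were 17 and 1 without a filter, 15 and 1 with a filter of 5 FPKM, 4 and 7 with the size factors, 5 and 7 when limma-voom was added, and 8 and 1 with quantile normalization. Single libraries left out gave 14 to 19 and 1, and with the size factors 3 to 4 and 3 to 7, the lower calls being 3 without HSA-NRTN library 2 and 4 without HSA-NRTN library 3 or WT library 2. The members' median log2 change (0.27) was -0.012 with the size factors, -0.0081 when limma-voom was added and 0.12 with quantile normalization, and ran from -0.039 to 0.29 over the libraries left out under both scalings. Nrtn was higher in HSA-NRTN under every alternative run.

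With the size factors, the log2 changes of 14 members that lay above 0 with the deposited FPKM lay below it, none of them called: -0.11 for Clpp, -0.10 for Clpx, -0.054 for Grpel1, -0.13 for Grpel2, -0.0044 for Lonp1, -0.20 for Timm13, -0.14 for Timm22, -0.043 for Timm23, -0.11 for Timm50, -0.19 for Timm8b, -0.10 for Tomm20, -0.019 for Tomm34, -0.019 for Tomm7 and -0.13 for Tomm70a. With quantile normalization they were -0.091 for Grpel2, -0.047 for Timm22, -0.14 for Timm23 and -0.025 for Tomm70a. Over the libraries left out, under both scalings, they ran from -0.20 to 0.23 for Clpp, -0.17 to 0.24 for Clpx, -0.097 to 0.29 for Grpel1, -0.17 to 0.16 for Grpel2, -0.051 to 0.32 for Lonp1, -0.026 to 0.35 for Timm10, -0.32 to 0.17 for Timm13, -0.22 to 0.19 for Timm22, -0.19 to 0.25 for Timm23, -0.15 to 0.26 for Timm50, -0.29 to 0.23 for Timm8b, -0.0047 to 0.35 for Timm9, -0.19 to 0.22 for Tomm20, -0.077 to 0.32 for Tomm34, -0.15 to 0.44 for Tomm7 and -0.18 to 0.19 for Tomm70a. The size factors differ from the deposited scaling by a constant per library, so the shift follows from their construction, and which scaling fits the RNA content per cell was not tested.

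With the replicate number as a block, 18 members were called higher and 1 lower, and with the size factors 6 and 4. For the other import genes the block gave 18 and 1, and 4 and 7 with the size factors. The replicate numbers could not be shown to pair the libraries. The deviations of same-numbered libraries correlated at 0.083, -0.17 and 0.19 over 10755 genes, and those of differently numbered libraries at -0.19 to 0.10. With 3 libraries per group such correlations cannot settle whether a pairing exists. For members with few reads, such as Tomm6 with 2 to 10 reads per library, a difference was not detectable at this depth.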
